A study of Mus musculus with 4 samples.

Results

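The vascular endothelial growth factor (VEGF) family was examined in 4T1Br, a variant of the mouse breast cancer line 4T1 that colonises the brain. The 9 genes comprise 4 ligands (Vegfa, Vegfb, Vegfc and Pgf), 3 receptor tyrosine kinases (Flt1, Kdr and Flt4) and 2 neuropilins (Nrp1 and Nrp2), chosen by name out of 22180 named genes on the array. Each was read by a single probe set that carried its symbol alone. Cells of both groups carried a lentiviral hairpin and had been selected with puromycin; the hairpin was a control (shControl, 2 arrays) or directed against YTHDF3 (shYTHDF3, 2 arrays). YTHDF3 is a cytoplasmic protein that binds N6-methyladenosine in messenger RNA. The comparison addressed which transcripts differed in abundance when YTHDF3 was knocked down. The labels give a single name for the YTHDF3 hairpin, so reduced YTHDF3 and effects of that hairpin itself cannot be told apart. The labels also do not say whether the arrays came from separate cultures. The p-values therefore measure only the spread between these arrays, which may be technical. The titles say 4T1 and the cell line label says 4T1Br.

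VEGF ligands are secreted dimers that drive the growth and permeability of blood and lymphatic vessels. VEGF-A, the main factor of blood vessel growth, signals through the receptors encoded by Kdr and Flt1, PlGF and VEGF-B bind the product of Flt1, and VEGF-C and VEGF-D bind that of Flt4. Neuropilins have no known catalytic function of their own and present VEGF to the kinase receptors. They also serve as receptors for class 3 semaphorins. Carcinoma cells are chiefly a source of ligand, whereas Kdr and Flt4 are best known from endothelium. In breast cancer metastasis to the brain, tumour-derived VEGF-A is known for raising the permeability of nearby vessels.

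The precision is limited by the number of arrays. Median expression over all probe sets ran from 4.42 to 4.47 (log2) across the 4 arrays. A level of 4.28, the 95th percentile of the mean values of 1108 olfactory receptor probe sets, served as the background, and limma was run on the 13056 genes whose mean exceeded it. Of these, 356 (2.73%) passed an adjusted p of 0.05. Ythdf3 read 8.98 and 8.81 with shControl against 8.21 and 8.16 with shYTHDF3, and fell by 0.71 on the log2 scale (SE 0.10, limma adjusted p = 0.0355); the adjusted p was 0.141 to 0.188 when 1 array was left out. Ythdf3 mRNA thus remained at 61.1% of the shControl level (95% confidence interval 51.4% to 72.7%). As a check of the cell type, 5 of 7 mammary epithelial markers were above background, among them Krt8 and Krt18. Epcam and Krt14 were not, and Cdh1 averaged 4.47.

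None of the 7 VEGF family members above background passed the threshold (limma; 0 of 7, against 2.73% of all genes tested). At an unadjusted p under 0.05 limma gave 3 of 7, namely Vegfa and Pgf with lower and Vegfb with higher values in shYTHDF3, against 22.6% of all genes (10.4% lower and 12.2% higher). With an intensity trend in the variance model, the same 3 genes passed the adjusted threshold, against 10.9% of all genes (5.33% falling and 5.59% rising). The median difference of the 7 members was -0.32 (log2, shYTHDF3 minus shControl), and that of all genes tested was 0.0057. The groups did not overlap in 4 of the 7, with 3 lower and 1 higher in shYTHDF3, compared with 54% of all genes tested (25.7% lower and 28.3% higher). Separation of the 2 groups is thus common here, and its share in the members is close to the background. The other 2 members, Kdr and Flt4, were not above background.

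**Figure D1:**
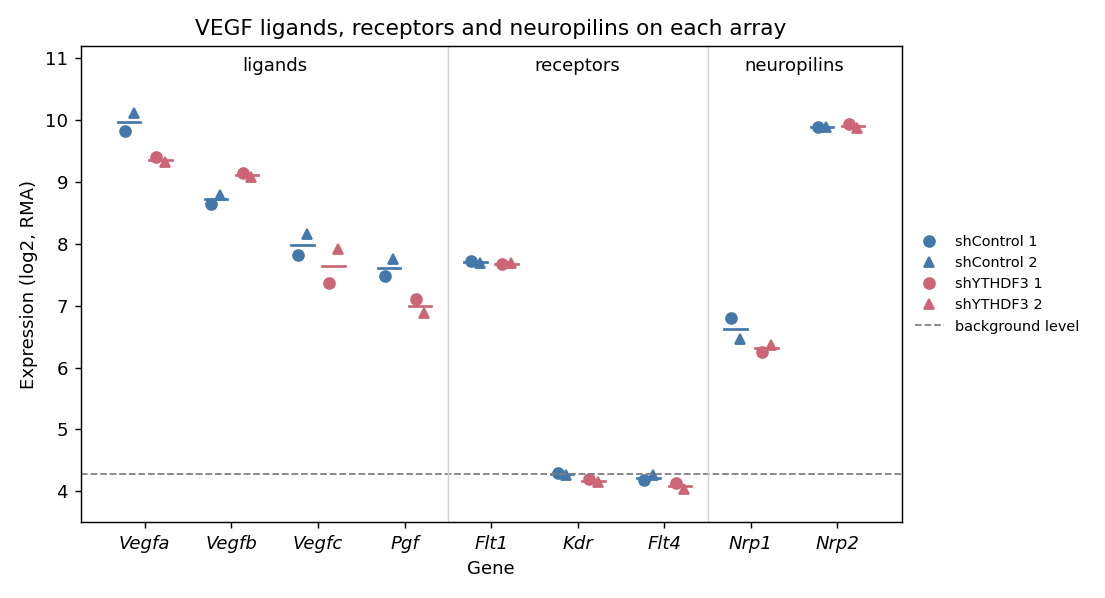
Expression (log2, RMA) of the 9 genes on each of the 4 arrays. Circles and triangles are replicates 1 and 2, short bars are group means (n = 2), and the dashed line is the background level of 4.28. Vegfa and Pgf lie lower and Vegfb higher on both shYTHDF3 arrays, while Kdr and Flt4 lie at the background. Levels of different genes come from different probe sets and are not comparable.

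Among the ligands, Vegfa was lower on both shYTHDF3 arrays. It read 9.83 and 10.12 with shControl against 9.40 and 9.33 with shYTHDF3, so that the highest shYTHDF3 value lay under the lowest shControl value. The group means were 9.98 ± 0.21 and 9.36 ± 0.05 (SD, n = 2 each). The difference of -0.61 (SE 0.13) corresponds to 65.4% of the shControl level, with a 95% confidence interval of 52.8% to 81.0% that is not corrected for the number of genes (limma adjusted p = 0.0668). Of the 13056 genes tested, 223 (1.71%) had a difference as low or lower. The adjusted p of Vegfa was 0.00482 with an intensity trend and 0.0253 with a stricter background at the 99th percentile of the olfactory receptors. A probe set gives a single value, so the splice forms of Vegfa, which differ in how tightly they bind heparan sulphate, were not told apart. In RNA of a whole culture, fewer expressing cells and less RNA per cell cannot be told apart either.

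Pgf, which encodes placental growth factor, shared this direction. Its values were 7.48 and 7.76 with shControl against 7.11 and 6.88 with shYTHDF3, again without overlap. The difference of -0.63 (SE 0.14) left 64.8% of the shControl level (95% confidence interval 51.2% to 82.0%; limma adjusted p = 0.0757; 0.0151 under an intensity trend). A difference as low or lower was found in 207 genes (1.59%).

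Vegfb, whose product binds the Flt1 receptor and is not induced by hypoxia in most cells, lay in the opposite direction. It read 8.64 and 8.80 with shControl against 9.14 and 9.09 with shYTHDF3, with both shYTHDF3 arrays above both controls. The difference of 0.40 (SE 0.10) amounted to 132% of the shControl level (95% confidence interval 111% to 156%; limma adjusted p = 0.0995; 0.0155 under an intensity trend). Differences as high or higher were found in 774 genes (5.93%).

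Vegfc, the ligand of lymphatic vessel growth, varied more between the shYTHDF3 replicates than the other members. It read 7.82 and 8.15 with shControl against 7.37 and 7.92 with shYTHDF3, and the groups overlapped. The gap of 0.54 between the shYTHDF3 arrays was larger than that of 98.1% of all genes tested. The difference of -0.34 (SE 0.21, limma adjusted p = 0.383; 95% confidence interval -0.85 to 0.17) depended on which arrays were used. It was -0.071 without shYTHDF3 1, -0.17 without shControl 2, -0.51 without shControl 1 and -0.61 without shYTHDF3 2.

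Vegfd, the other lymphatic ligand of the family, is not among the 9 genes but was measured beside them. It read 5.96 and 5.78 with shControl against 5.08 and 5.22 with shYTHDF3, and fell by 0.72 (SE 0.11, limma adjusted p = 0.0389), to 60.7% of the shControl level. This call was lost when any 1 of the 4 arrays was left out (limma adjusted p of 0.161 to 0.177), when dim probe sets were not filtered (0.0930), when all probe sets past the filter were tested as features of their own (0.192) and with the replicate number as a block (0.0901). Of the other ligands listed with it, which share the cystine-knot fold, Pdgfa differed by 0.38, Pdgfc by 0.28 and Pdgfb by 0.03; none of these 3 passed, and Pdgfd was not above background.

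**Figure D2:**
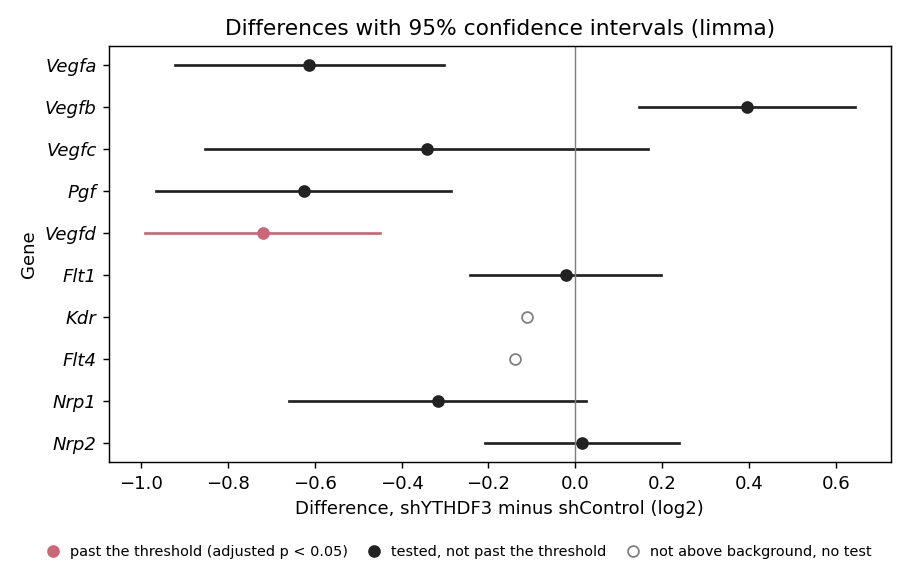
Differences between group means (log2, shYTHDF3 minus shControl) for the 9 genes and Vegfd, with 95% confidence intervals from limma (n = 2 arrays a group, not corrected for the number of genes). The intervals of Vegfa, Pgf and Vegfb exclude 0 although none of the 3 passed after adjustment; only Vegfd, at -0.72, did. Open circles are Kdr and Flt4, which were not above background and were not tested.

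Among the 4 ligand members, Vegfa, Pgf and Vegfb had the largest differences, and their promoters are shown because the genes lie in opposite directions in the array data while each promoter holds the same motif, at its own number of places. Each run is the 250 bases before the most upstream start of the gene in RefSeq (GRCm38.p6, 5′ to 3′ on the gene's strand, which is the minus strand for all 3): chr17:46032378-46032627 for Vegfa, chr12:85177314-85177563 for Pgf and chr19:6987652-6987901 for Vegfb. Capitals mark matches to GGGCGG on either strand, the GC box that Sp1 binds; neighbouring boxes can join into a longer run of capitals.
Vegfa: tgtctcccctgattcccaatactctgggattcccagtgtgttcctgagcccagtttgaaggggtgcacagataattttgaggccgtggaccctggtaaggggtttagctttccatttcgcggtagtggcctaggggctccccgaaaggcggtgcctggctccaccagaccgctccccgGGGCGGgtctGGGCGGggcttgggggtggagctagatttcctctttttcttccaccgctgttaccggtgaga
Pgf: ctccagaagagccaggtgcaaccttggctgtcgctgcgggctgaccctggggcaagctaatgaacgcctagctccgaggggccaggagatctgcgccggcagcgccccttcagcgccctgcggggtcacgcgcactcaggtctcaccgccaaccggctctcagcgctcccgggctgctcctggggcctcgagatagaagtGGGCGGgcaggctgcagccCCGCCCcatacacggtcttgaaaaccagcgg
Vegfb: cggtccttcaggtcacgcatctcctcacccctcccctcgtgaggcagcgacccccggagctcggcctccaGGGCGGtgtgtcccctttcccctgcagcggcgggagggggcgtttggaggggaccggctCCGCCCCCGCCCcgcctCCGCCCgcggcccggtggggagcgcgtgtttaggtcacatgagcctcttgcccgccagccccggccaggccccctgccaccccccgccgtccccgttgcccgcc
Vegfa and Pgf held 2 GC boxes each and Vegfb held 4, with 59.2%, 68.4% and 76.4% of bases being G or C. All 9 family members held at least 1 GC box in this window, from 1 in Nrp1 to 5 in Nrp2. So did 18 of the 22 hypoxia-induced genes listed below that had a promoter in the table, and 32.7% of its 32851 promoters. Shares over all promoters count every start in the table, whereas members and hypoxia-induced genes were read at 1 start each. The G and C content of the promoters compared was not matched. The core of the hypoxia response element, ACGTG, was found on neither strand in any of the 9 windows, nor was the AP-1 motif TGANTCA; the shares over all promoters were 16.6% and 6.7%. ACGTG stood in 13 of the 22 hypoxia-induced genes listed below that had a promoter in the table. A match is no evidence of binding, and the missing matches concern these 250 bases alone. The motifs searched did not overlap each other in the windows printed, since GC boxes were the only matches.

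Of the receptors, Flt1 alone was expressed above background. Flt1, which encodes VEGFR1 and also gives rise to a secreted form that traps ligand, read 7.72 and 7.69 with shControl against 7.67 and 7.69 with shYTHDF3. The groups overlapped, and the difference of -0.02 (SE 0.09, limma adjusted p = 0.913) had a 95% confidence interval of -0.24 to 0.20. Its membrane-bound and secreted forms were not told apart by the probe set. Kdr, which encodes VEGFR2, read 4.30 and 4.26 with shControl against 4.19 and 4.14 with shYTHDF3, with a mean under the background and above 94.8% of the olfactory receptor probe sets. Flt4, which encodes VEGFR3, read 4.19 and 4.26 with shControl against 4.14 and 4.03 with shYTHDF3, above 94.2% of them. Differences of -0.11 and -0.14 in this range were not tested.

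Endothelial markers were measured beside the receptors. Of 14 blood and lymphatic endothelial markers, 4 were above background (Cdh5, Vwf, Egfl7 and Robo4), and Pecam1, Tek, Tie1, Emcn, Cldn5, Lyve1 and Prox1 were among the 10 that were not. Cdh5, Robo4 and Vwf averaged 4.34, 4.41 and 4.45 over the 4 arrays, close to the background of 4.28, and Egfl7 averaged 5.65. The summed linear signal of the 14 markers was 243.9 and 264.4 with shControl against 260.5 and 239.4 with shYTHDF3, so the groups overlapped.

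Of the neuropilins, Nrp1 varied more between arrays than Nrp2. Nrp2, a co-receptor for VEGF-C and for semaphorins, read 9.88 and 9.89 with shControl against 9.93 and 9.87 with shYTHDF3; its difference of 0.02 (SE 0.09, limma adjusted p = 0.945) had a 95% confidence interval of -0.21 to 0.24. Nrp1, a co-receptor for VEGF-A, read 6.80 and 6.46 with shControl against 6.25 and 6.37 with shYTHDF3. The Nrp1 groups did not overlap, but the gap of 0.34 between the shControl arrays exceeded the difference of -0.32 (SE 0.14, limma adjusted p = 0.247; 95% confidence interval -0.66 to 0.02). The Nrp1 difference was -0.15 without shControl 1 and -0.49 without shControl 2.

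Genes that act with the family were read from 9 lists. They named 162 genes, of which 127 were tested, 22 were not above background and 13 were not analysed here. Over all lists 16 fell and 3 rose, against 1.45% falling and 1.28% rising among all genes tested; the lists were drawn up with results of these data known, so their counts describe the genes and are no independent evidence. For 18 called genes (Vegfd, Ythdf3 and the up to 3 risers and 3 fallers of each list with the largest change, which leaves out Pfkfb3, Cxcl1 and the cell type markers) the calls were followed across alternatives. All 18 held their direction when any 1 array was left out, but leaving out either shControl array kept 0 of the calls, leaving out shYTHDF3 1 kept 1, and leaving out shYTHDF3 2 kept 2. Since the groups of each of the 18 did not overlap, leaving out 1 array could not have reversed a direction. The replicate block kept 6 calls, fitting without a filter kept 7, and fitting all probe sets past the filter kept 0.

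**Figure D3:**
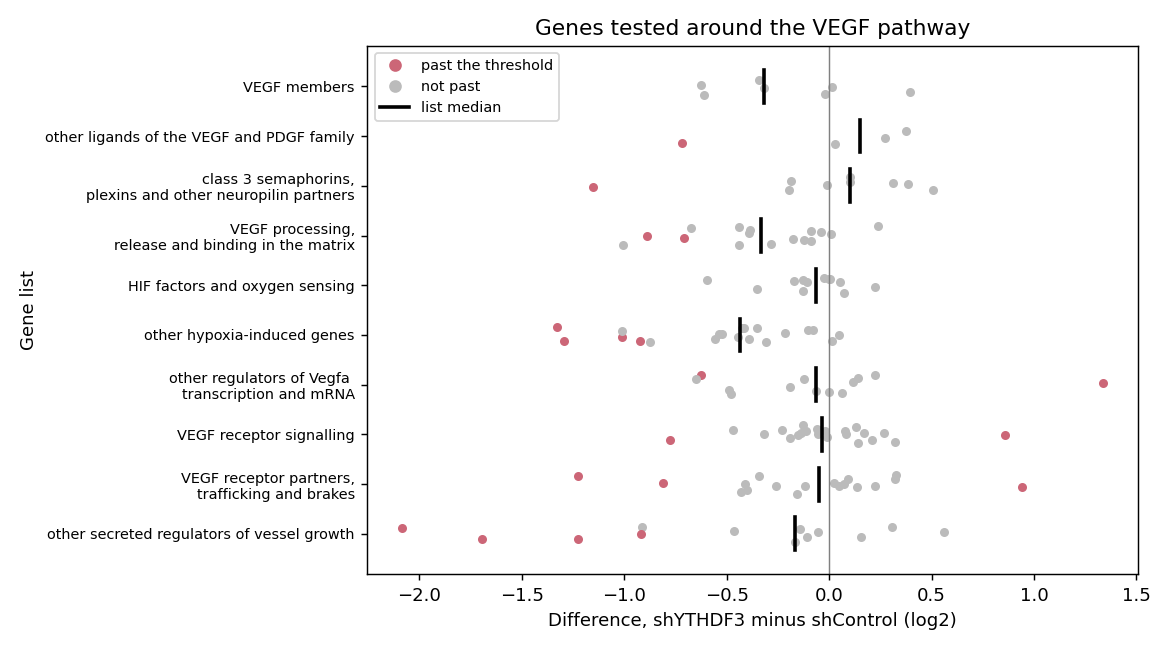
Differences (log2, shYTHDF3 minus shControl) of every gene tested in the VEGF family and in the 9 lists. Each point is a gene, red where limma's adjusted p was under 0.05, and black bars are list medians. The medians of the hypoxia-induced genes (-0.43), the genes of ligand processing and release (-0.34) and the VEGF family (-0.32) lie furthest below 0.

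Among neuropilin partners 1 of 9 tested fell, none rose and 8 did not pass, with a median of 0.10. Sema3c, a class 3 semaphorin that signals through neuropilins and plexins, read 5.20 and 5.27 with shControl against 4.03 and 4.13 with shYTHDF3 (limma adjusted p = 0.0131). Because the shYTHDF3 mean lay under the background, its fall is given as at least 0.95. Sema3e, which acts through plexin D1 without needing a neuropilin, differed by 0.39 without passing.

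Genes of VEGF processing, release and binding in the matrix had a median of -0.34: 2 of 16 tested fell, none rose and 14 did not pass, and the groups did not overlap, with shYTHDF3 lower, in 12 of the 16 (25.7% of all genes tested). With an intensity trend 8 of the 16 fell, against 5.33% of all genes. Mmp3, a metalloproteinase that frees matrix-bound growth factors, fell by 0.89 (SE 0.10), and Adamts1, a protease that also binds and sequesters VEGF-A, fell by 0.71 (SE 0.11; limma adjusted p = 0.0240 and 0.0397). Factors that promote and factors that limit VEGF activity stood in this list together. Ccbe1, required for the activation of VEGF-C, differed by -0.44, and Furin, a protease that trims pro-VEGF-C, by 0.24; neither passed.

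Of 12 genes of HIF and oxygen sensing none passed (limma, against 2.73% of all genes tested), with a median of -0.07. At an unadjusted p under 0.05 limma gave 2 of 12, Hif1a and Arnt, against 22.6% of all genes. With an intensity trend 3 of 12 passed, Hif1a and Arnt lower and Elob higher, against 10.9% of all genes. Hif1a, the oxygen-regulated transcription factor subunit that induces Vegfa, read 10.01 and 9.82 with shControl against 9.48 and 9.64 with shYTHDF3 (difference -0.35, limma adjusted p = 0.153), with -0.29 on its second probe set. Its partner Arnt differed by -0.60 (SE 0.11, limma adjusted p = 0.0527; 0.00361 under an intensity trend). Epas1, which encodes the related HIF-2 alpha subunit, was not above background. The abundance of Hif1a mRNA does not give that of the protein, which oxygen controls.

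The other hypoxia-induced genes had the lowest median of the 9 lists, -0.43. In 16 of the 20 tested, shYTHDF3 values lay wholly below those of shControl (25.7% of all genes tested). With an intensity trend 15 of the 20 fell, against 5.33% of all genes. Without that trend 4 of the 20 fell, against 1.45% of all genes, none rose and 16 did not pass. Ddit4, which restrains mTORC1, fell by 1.33 (SE 0.13). Ero1a, an oxidoreductase of the endoplasmic reticulum, fell by 1.29 (SE 0.13), and differed by -1.11 on its second probe set. The glucose transporter gene Slc2a3 fell by 1.01 (SE 0.13). The fourth was Pfkfb3, named after its values were seen. Their limma adjusted p lay between 0.0221 and 0.0321. Car9, the tumour-associated carbonic anhydrase and a classic hypoxia target, read 7.41 and 7.46 with shControl against 7.62 and 7.35 with shYTHDF3, with overlapping groups.

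**Figure D4:**
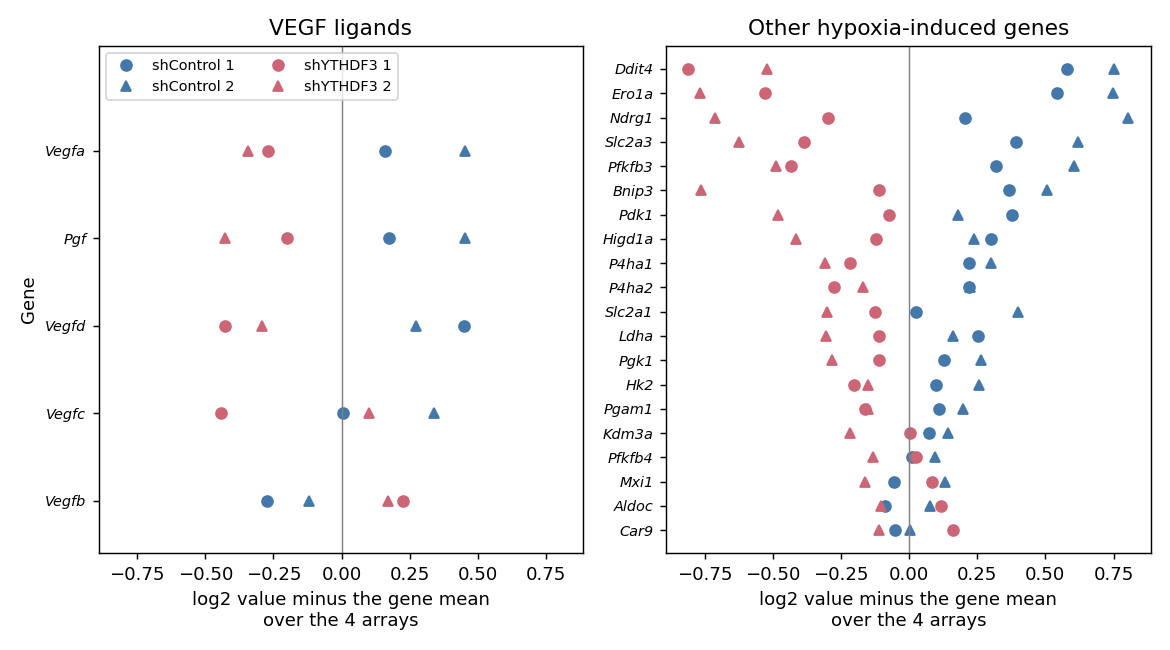
Values of the VEGF ligands (left) and of the 20 hypoxia-induced genes tested (right) on each array, as log2 value minus the gene's mean over the 4 arrays. Blue is shControl, red is shYTHDF3, and circles and triangles are replicates 1 and 2. Vegfa, Pgf and Vegfd lie to the left in shYTHDF3 as 16 of the 20 hypoxia-induced genes do without overlap, Vegfb lies to the right, and the groups of Vegfc overlap.

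Other regulators of Vegfa transcription and mRNA went in both directions, with 1 of 13 rising, 1 falling and 11 not passing (median -0.06). With an intensity trend 4 of the 13 fell and 1 rose, against 5.33% and 5.59% of all genes. Egr1, an immediate early factor that can drive the Vegfa promoter, rose by 1.34 (SE 0.16), from 6.22 and 5.82 to 7.23 and 7.48. Stat3, another activator of Vegfa, fell by 0.62 (SE 0.09; limma adjusted p = 0.0286 and 0.0381). Jun and Atf4 differed by -0.65 and -0.48 without passing (limma adjusted p = 0.0983 and 0.103, or 0.0152 and 0.0123 under an intensity trend). Zfp36l1, which promotes decay of Vegfa mRNA, differed by -0.49 without passing, and by -0.01 on its second probe set.

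Signalling genes downstream of the receptors held 1 riser and 1 faller among 22 tested (median -0.04). Plcg2, a phospholipase C, rose by 0.86 (SE 0.09), and Pla2g4a, the cytosolic phospholipase A2 that releases arachidonic acid, fell by 0.78 (SE 0.10; limma adjusted p = 0.0240 and 0.0286). Plcg1, the isoform best known downstream of VEGFR2, differed by -0.19 without passing. Among receptor partners, trafficking genes and brakes 2 of 18 fell, 1 rose and 15 did not pass (median -0.05). Itgb3, the integrin subunit that pairs with integrin alpha V and cooperates with VEGFR2, fell by 1.22 (SE 0.10), Cblb, a ubiquitin ligase of receptor turnover, fell by 0.81 (SE 0.12), and Spry1, a feedback inhibitor, rose by 0.94 (SE 0.14; limma adjusted p of 0.0109, 0.0360 and 0.0389).

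Of 13 other secreted regulators of vessel growth tested, 4 fell, none rose and 9 did not pass (median -0.17). They included factors that promote and factors that oppose vessel growth. Angptl4, which loosens vessel junctions, fell by 2.08, Jag1, a Notch ligand, fell by 1.69, and Thbs2, an antiangiogenic thrombospondin, fell by 1.22. The fourth was Cxcl1, named after its values were seen. Their limma adjusted p lay between 0.00474 and 0.0279. Angpt1, the Tie2 ligand that steadies vessels, differed by -0.91 (SE 0.16, limma adjusted p = 0.0520), while Col18a1, the collagen that yields endostatin, differed by 0.56 without passing.

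Markers of other cells were set beside the ligands. Of 7 leukocyte and macrophage markers, Cd68 and Cd14 were above background and Ptprc, Adgre1, Csf1r, Itgam and Tyrobp were not. The summed linear signal was 595.4 and 615.1 with shControl against 428.6 and 501.9 with shYTHDF3. Cd68 and Cd14, the highest of the list, differed by -0.72 and -0.30 without passing (limma adjusted p = 0.0547 and 0.230). Of 8 fibroblast and mural markers 7 were above background, with sums of 1130.9 and 1107.9 with shControl against 742.6 and 740.8 with shYTHDF3. In that list Dcn fell by 2.65 and Pdgfra fell by 0.61, while Pdgfrb, Col1a1 and Acta2 differed by 0.21, 0.10 and 0.06 without passing, and the median of the 7 tested was -0.05. The sums of the epithelial markers were 2664.7 and 2879.1 with shControl against 3903.5 and 3684.1 with shYTHDF3. Krt8 and Krt18 had the highest values of the list and so weighed most in these sums. They differed by 0.31 and 0.57 without passing (limma adjusted p = 0.151 and 0.0527, or 0.0243 and 0.00166 under an intensity trend). Krt7, which read far lower than both, rose from 5.55 and 5.58 to 6.99 and 7.15 (limma adjusted p = 0.00816). Krt19 of the same list read lower without overlap, 6.86 and 6.63 with shControl against 6.30 and 6.13 with shYTHDF3, and did not pass (difference -0.53, limma adjusted p = 0.0816; 0.0335 under an intensity trend). The part of these markers in the ligand differences was not tested.

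The genes whose 4 values, centred on their own mean, lay nearest to those of a member were taken from 11841 genes with proper names. With 4 arrays such likeness reflects little beyond the group difference and the gaps between replicates. For Vegfa they were Selenbp2, Steap4 and Gdap10, at Euclidean distances of 0.028, 0.032 and 0.040 (log2), each of which read about as much lower in shYTHDF3 as Vegfa (differences of -0.60, -0.60 and -0.60). Selenbp2 has a near-identical copy in the genome, so which gene its probe set read is uncertain. For Pgf they were Chsy3, Maff and Selenbp2, with differences of -0.59, -0.66 and -0.60. For Vegfb they were Sfxn3, Tubgcp2 and Hacl1, with differences of 0.38, 0.42 and 0.42. Those nearest to Vegfc, at distances from 0.085 to 0.12, were Mtus1, Sct and D2Bwg1423e. Nelfb, Heph and Dffa were nearest to Flt1, Syt1, Lipt1 and Ifi202b to Nrp1, and Asxl1, Gosr2 and Plk1 to Nrp2. None of these genes passed the limma threshold, and the limma adjusted p of those nearest to Vegfa, Pgf and Vegfb ran from 0.0587 to 0.112. Because the genes were picked for values like those of a member, such closeness follows from the choice and is no separate result.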

How the data were processed

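The authors deposited 1 RMA-normalised value per probe set and array, taken as log2, per the submitters' processing notes (RMA; the sources used here give neither software version nor log base, and the range of the values fits log2). RMA makes the distributions of arrays alike, so a shift of most genes in 1 direction would not be seen. Labels' protocols give Trizol extraction and biotin-labelled RNA on Affymetrix arrays. Of 41345 probe sets, 23521 had 1 gene symbol, 1814 several and 16010 none; 23328 matched RefSeq by Entrez identifier. Probe sets with several symbols named no gene. A gene took its probe set with the highest mean.

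The 4 arrays fell into 2 groups of 2 by title. Genes with a mean above the background of 4.28 were tested (13056; 9124 left out) with limma 3.58.1 in R 4.3.3 (lmFit, eBayes, two-sided, Benjamini-Hochberg over all genes tested, threshold 0.05). The members, lists and tests were chosen with earlier results of these data known. Named genes were all members, Vegfd, Ythdf3, up to 3 risers and 3 fallers of each list (or, with none, the 2 largest absolute differences) and the 3 nearest patterns of each member; other list genes were named for their role after their values were seen. Only the default limma fit was tested on simulated data with known changes. Alternatives covered filters, variance model, normalization, probe-set choice, pairing and left-out arrays. Figures used matplotlib 3.10.9 in Python 3.11.15.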

Additional observations from a re-analysis of the deposited data

How the results depend on the processing

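Each member has a single probe set, so filters, variance models, the replicate block and probe-set choice could not change its difference. Leaving out 1 array could not reverse a sign where the groups did not overlap, as in Vegfa, Vegfb, Pgf, Kdr, Flt4 and Nrp1. Within these limits the signs of Vegfa, Vegfb, Vegfc, Pgf, Flt1, Kdr, Flt4 and Nrp1 held under every alternative run. Nrp2, near 0, was -0.015 without shYTHDF3 1. The count of members past the threshold was 3 (Vegfa and Pgf lower, Vegfb higher) in place of 0 with the 99th-percentile background, with an intensity trend and with that trend and robust estimation, at unchanged differences of -0.61, -0.63 and 0.40. It stayed at 0 under all other alternatives, the replicate block included. Left-out arrays gave ranges of -0.76 to -0.47 for Vegfa, 0.32 to 0.47 for Vegfb, -0.61 to -0.071 for Vegfc, -0.76 to -0.49 for Pgf, -0.49 to -0.15 for Nrp1 and -0.015 to 0.045 for Nrp2. Calls over the 9 lists numbered 19 at first. They numbered 7 without a filter, 38 with the 99th-percentile background, 55 with an intensity trend with or without robust estimation, 0 over all probe sets past the filter, 6 with the replicate block and 0 to 2 without 1 array; those last fits have fewer residual degrees of freedom, and they take the spread of a lone array from the other group. Over all genes the calls numbered 356 at first and, under these alternatives in the same order, 43, 1071, 1426 (1465 with robust estimation), 0 of 21867 probe sets (3337 at an unadjusted p under 0.05 by limma), 51 and 0 to 12. The cause of the other shifts was not tested. Deviations of same-numbered arrays correlated at -0.066 across genes, so the numbers were not taken to pair the arrays. With 2 arrays a group, limma's calls depend on how variances are shared between genes.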

Other observations

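The 2 arrays of each group did not read the ligands and the hypoxia-induced genes alike. All 4 ligand members read higher on shControl 2 than on shControl 1, with a median gap of 0.29 (log2). Of all 13056 genes tested 45.5% did, and the median gap was -0.02. Vegfd, the ligand outside the members, went the other way, at 5.96 on shControl 1 and 5.78 on shControl 2. Among the 20 hypoxia-induced genes tested 17 read higher on shControl 2, with a median gap of 0.14. Ndrg1, a stress-induced gene, read 10.73 and 11.33, and Slc2a1, the main glucose transporter, 10.65 and 11.03. On its second probe set Ndrg1 read 5.25 and 5.72, whereas that of Slc2a1, close to the background, read 4.64 and 4.48. Within shYTHDF3, 16 of the 20 read lower on array 2, with a median gap of -0.21, where 53.6% of all genes did. Of the 4 ligand members 3 had a lower value on shYTHDF3 2 as well. They were Vegfa (9.33 against 9.40), Pgf (6.88 against 7.11) and Vegfb (9.09 against 9.14), whereas Vegfc read higher there (7.92 against 7.37). Vegfd also read higher on shYTHDF3 2 (5.22 against 5.08). Vegfa accordingly differed by -0.76 without shControl 1 and by -0.47 without shControl 2. These gaps lie within groups that the labels do not divide, and their source was not tested.

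Dll4, a Notch ligand that VEGF induces in endothelium, read 4.49 and 4.67 with shControl against 4.95 and 4.85 with shYTHDF3, close to the background, and did not pass (limma; difference 0.32). Notch1 differed by 0.33 and did not pass either, while Jag1, another Notch ligand, fell by 1.69.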
